A study of Mus musculus with 12 samples.

Results

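Respiratory complex I was followed at the RNA level in 2 bead-sorted fractions of mouse hippocampal cells. Its genes were taken by symbol as the protein-coding nuclear genes named Ndufa, Ndufb, Ndufc, Ndufs, Ndufv, Ndufab or Ndufaf, found by Ensembl identifier in both count tables. This gave 46 of the 25442 identifiers present in both: 36 subunits, 8 assembly factors and the pair Ndufa4 and Ndufa4l2. The 36 subunits comprised 7 core subunits, 9 accessory subunits of the matrix arm, 19 accessory subunits of the membrane arm and the acyl carrier subunit Ndufab1. Ndufa4 is named for complex I but belongs to complex IV, and Ndufa4l2 is its hypoxia-inducible relative, so both were kept apart. All 46 genes passed the filter on low counts in the fits of both fractions and of all 12 libraries together.

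The animals were male C57Bl6/J mice that received AAV2/9 vectors in the CA1 area of both hippocampi at 2 months of age, and they were sampled 2 months later, at 4 months. The vector carried the astrocytic GfaABC1D promoter and either the mouse A2A receptor gene Adora2a (AAV-A2A) or GFP (AAV-GFP, the control). Astrocytes were collected with ACSA-2 beads and microglia with CD11b beads from the cells that passed the ACSA-2 column, giving 4 groups of 3 libraries. Whole hippocampi were sorted, so uninjected subfields entered every library, and any endogenous Adora2a is counted together with the vector's. The labels do not say which ACSA-2 and CD11b libraries came from one animal, so p-values measure the spread between these libraries.

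Complex I takes electrons from NADH, passes them along iron-sulfur clusters to ubiquinone and pumps protons across the inner mitochondrial membrane. The core subunits hold the flavin and the clusters in the matrix arm, or, when encoded by mitochondrial DNA, form the proton channels of the membrane arm. The accessory subunits surround and stabilise this core, and the assembly factors help to build the enzyme but are absent from the finished complex. Promoters of nuclear respiratory genes are known to carry sites for the factors NRF1, GABP (an ETS-family factor), YY1 and ERRalpha.

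The promoters of the 46 genes were searched for these sites. RefSeq promoters of 300 bases (GRCm38.p6, 250 bases before and 50 after the start) were at hand for 40 of the 46 genes. The letters searched, on both strands, were CCGGAAG for ETS, AAGATGGCG for YY1 and TCAAGGTCA for ERRalpha, with the consensus of NRF1 as the capitals in Ndufaf4 give it. Each promoter printed here holds 1 match to any of them, shown in capitals, and was chosen to show 1 of the motifs that members held. The YY1 letters in Ndufs7 (chr10:80249199-80249498, + strand) begin at base 275, past the start. The ETS letters in Ndufs8 (chr19:3912725-3913024, - strand) begin at base 266, also past the start, and the NRF1 letters in the assembly factor Ndufaf4 (chr4:24897833-24898132, + strand) begin at base 137.
Ndufs7: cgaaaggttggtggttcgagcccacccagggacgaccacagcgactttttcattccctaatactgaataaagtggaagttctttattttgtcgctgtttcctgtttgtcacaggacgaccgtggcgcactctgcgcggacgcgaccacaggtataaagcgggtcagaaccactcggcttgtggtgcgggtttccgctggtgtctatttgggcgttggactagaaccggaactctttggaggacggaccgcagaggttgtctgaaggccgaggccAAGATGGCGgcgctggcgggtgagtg
Ndufs8: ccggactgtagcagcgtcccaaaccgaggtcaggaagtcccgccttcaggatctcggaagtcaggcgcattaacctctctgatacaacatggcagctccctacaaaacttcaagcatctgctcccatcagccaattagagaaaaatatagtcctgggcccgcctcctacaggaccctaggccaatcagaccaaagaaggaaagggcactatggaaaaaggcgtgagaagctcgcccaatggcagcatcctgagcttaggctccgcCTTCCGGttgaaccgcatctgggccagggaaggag
Ndufaf4: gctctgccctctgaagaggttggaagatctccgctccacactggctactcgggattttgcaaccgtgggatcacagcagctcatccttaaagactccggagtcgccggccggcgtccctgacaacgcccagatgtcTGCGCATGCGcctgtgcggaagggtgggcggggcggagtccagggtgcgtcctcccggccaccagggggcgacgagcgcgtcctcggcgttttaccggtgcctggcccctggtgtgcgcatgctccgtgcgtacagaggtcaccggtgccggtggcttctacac
The ETS letters were found in 6 of the 40 member genes (15%) against 9.93% of the 27025 genes with such a promoter. The YY1 letters were found in 6 (15%, in Ndufa9, Ndufaf8, Ndufc1, Ndufs4, Ndufs6 and Ndufs7) against 1.64% of all genes. The NRF1 letters were found in 2 (5%, in Ndufa8 and Ndufaf4) against 1.12%, and the ERRalpha letters in 0 against 0.466%. These are counts of letters in a window, not of bound sites, and their relation to the log2 differences was not tested.

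Library depth ran from 33937067 to 53206974 counted reads. Adora2a, the targeted gene, stood at 22.9 to 25.1 CPM (counts scaled to library size) in the 3 AAV-GFP astrocyte libraries and at 655.1 to 944 CPM in the 3 AAV-A2A ones (log2 fold change, FC, 5.02 ± 0.21 SE, edgeR adjusted p = 1.55e-05). In the CD11b libraries it was 3.96 to 8.06 CPM and 16.2 to 43.2 CPM, also without overlap (log2 FC 2.20 ± 0.54, edgeR adjusted p = 0.28). All 8 microglia markers were higher and all 8 astrocyte markers lower in the CD11b than in the ACSA-2 AAV-GFP libraries. CD11b libraries GFP-2328, GFP-2329 and A2A-2347 stood apart: 8 choroid plexus markers summed to 77540, 62783 and 32527 CPM there, against 100.8, 72.2 and 9.72 CPM in GFP-2331, A2A-2343 and A2A-2344. The 8 microglia markers summed to 8538, 17629 and 23773 CPM in the former and to 57049, 64762 and 49520 CPM in the latter. The main medians and calls that use the CD11b libraries are therefore also given for these sets of libraries.

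Complex I transcripts took a larger share of the astrocyte libraries than of the microglial ones. The 36 subunits held 0.838%, 0.646% and 0.624% of all counts in astrocyte libraries GFP-303, GFP-306 and GFP-307. They held 0.840%, 0.895% and 0.733% in A2A-309, A2A-310 and A2A-313. In microglia the same subunits held 0.516%, 0.468% and 0.211% in GFP-2328, GFP-2329 and GFP-2331, and 0.152%, 0.093% and 0.235% in A2A-2343, A2A-2344 and A2A-2347. The ranges of the vector groups overlapped in both fractions, in microglia only through A2A-2347, which lay just above GFP-2331. The assembly factors held far less, 0.0314% to 0.0470% of astrocyte counts and 0.0111% to 0.0309% of microglial counts.

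**Figure D1:**
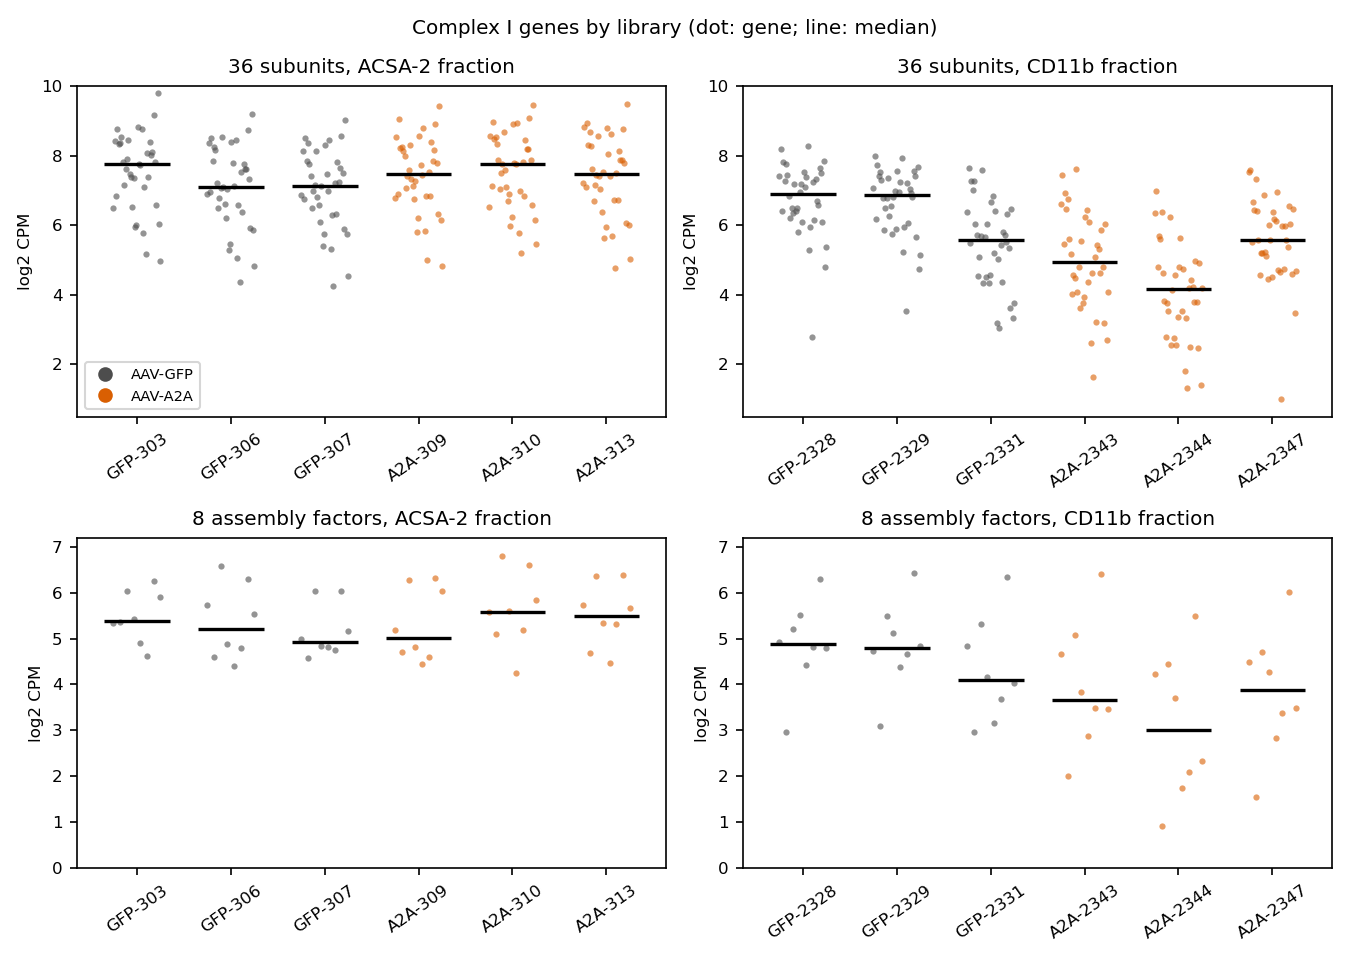
Level of the 36 subunits (top) and the 8 assembly factors (bottom) in each library, as log2 CPM scaled within each fraction. Each dot is a gene, the black line is the median, AAV-GFP libraries are grey and AAV-A2A libraries are orange. Among CD11b libraries the subunit median ran from 4.18 in A2A-2344 to 6.90 in GFP-2328, and among ACSA-2 libraries from 7.11 in GFP-306 to 7.77 in A2A-310.

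Levels differed widely between members. On one scale for all 12 libraries and per kilobase of exon, the membrane arm subunit Ndufc2 was the most abundant member in AAV-GFP astrocytes, at 902 ± 272 CPM per kb (SD, n = 3). It was followed by Ndufa8 at 433 ± 90.3, Ndufb10 at 385 ± 85.0 and Ndufa2 at 322 ± 71.3 CPM per kb, which lie within their spread of one another. The core subunits of the ubiquinone-binding module Ndufs7 and Ndufs8, which carry iron-sulfur clusters, stood at 229 ± 26.0 and 205 ± 43.6 CPM per kb. The core subunit Ndufs1, the largest iron-sulfur protein of the complex, stood at 13.6 ± 2.01 CPM per kb over a long exon model of 8086 bases. Ndufab1, which also serves mitochondrial fatty acid synthesis as acyl carrier protein, was last at 4.09 ± 0.64 CPM per kb. Exon length here joins all annotated transcripts, which lowers the values of genes with long alternative ends. The 8 assembly factors held ranks 29 to 44 of 46.

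The order was nearly kept in AAV-GFP microglia, where Ndufc2 was again first at 225 ± 91.1 CPM per kb. Across the 46 genes the 2 fractions' levels per kilobase had a Spearman rho of 0.939, a description over genes that share length and libraries. The median level was 75.5 CPM per kb in AAV-GFP astrocytes and 38.2 CPM per kb in AAV-GFP microglia. The microglial levels average GFP-2331 with GFP-2328 and GFP-2329, which were rich in choroid plexus transcripts. Median levels per kilobase are not given apart for these library sets. Ndufa1, a small membrane arm subunit, went from rank 18 to rank 2, and its microglial level of 224 ± 153 CPM per kb came from GFP-2328 and GFP-2329.

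**Figure D2:**
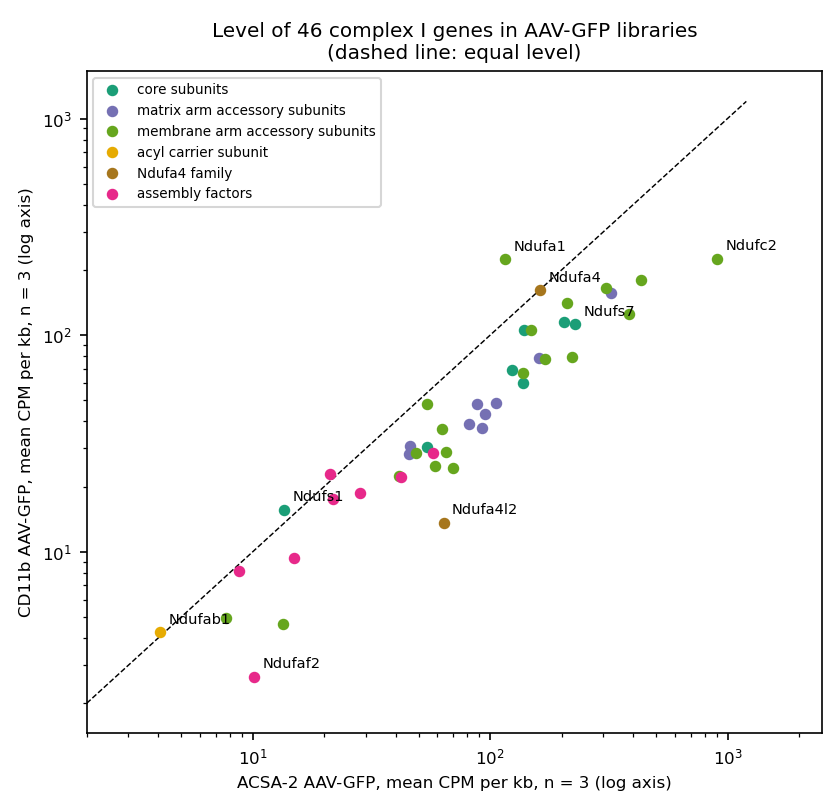
Mean level of each of the 46 genes in AAV-GFP astrocytes (x axis) and AAV-GFP microglia (y axis), in CPM per kilobase of exon on log axes, n = 3 libraries each, with the colour giving the role in the complex. Most genes lie below the dashed line of equal level: 42 of 46 had a negative log2 FC, and Ndufa1 lies farthest above the line.

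Between fractions, AAV-GFP microglia had lower levels of many complex I genes than AAV-GFP astrocytes. In the fit of all 12 libraries, 18 of 46 members were called lower and 0 higher (edgeR, adjusted p below 0.05 with a log2 FC beyond 0.32 in either direction). Over all 18602 genes tested, 12.3% were called lower and 14.4% higher. The lower members were 14 of the 36 subunits, 3 of the 8 assembly factors and Ndufa4l2. A log2 FC below 0 was found in 42 of 46 members, against 47% of genes. The subunits had a median log2 FC of -0.96 and the assembly factors of -0.64, against 0.11 over all genes tested. By exon length, the median of all genes was -0.53 (under 1000 bases), -0.32 (1000 to 2000), 0.06 (2000 to 4000) and 0.33 (from 4000). The subunits of these classes had medians of -1.05, -1.065, -0.83 and -0.645. Fraction and deposited table cannot be told apart, and fewer cells of a type cannot be told apart from less RNA per cell in bulk samples.

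Of the core subunits, 4 of 7 were called lower in microglia: Ndufs7 (log2 FC -1.03 ± 0.30), Ndufs8 (-0.84 ± 0.27), Ndufv1, which binds NADH and the flavin (-0.84 ± 0.26), and Ndufs3 (-0.83 ± 0.26). The edgeR adjusted p of these ran from 0.0276 to 0.0403. Ndufv2, its partner in the NADH-oxidising module, missed the threshold at -1.20 ± 0.43 (edgeR adjusted p = 0.0593). Among matrix arm accessory subunits Ndufa9 alone was called, at -1.03 ± 0.34 (edgeR adjusted p = 0.0447), and all 9 had a negative log2 FC. Among membrane arm accessory subunits 9 of 19 were called.

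The largest differences were in Ndufa4l2, Ndufc2 and Ndufaf2. On the 12-library scale Ndufa4l2 was 73.9, 60.6 and 74.9 CPM in the 3 AAV-GFP astrocyte libraries and 7.83, 9.88 and 27.1 CPM in GFP-2328, GFP-2329 and GFP-2331 (log2 FC -2.22 ± 0.50, edgeR adjusted p = 0.00726). Ndufc2 was 914, 594.5 and 531.7 CPM in astrocytes and 219, 199 and 91.5 CPM in microglia (log2 FC -2.00 ± 0.42, edgeR adjusted p = 0.00543). Ndufaf2, a late assembly factor, was 41.6, 24.4 and 24.3 CPM in astrocytes and 7.48, 8.28 and 7.98 CPM in microglia (log2 FC -1.93 ± 0.36, edgeR adjusted p = 0.00255). For these 3 genes every AAV-GFP astrocyte library lay above every AAV-GFP microglial one. The Ndufaf2 level was even across the 3 AAV-GFP microglial libraries, of which GFP-2331 alone was low in choroid plexus transcripts.

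The assembly factors Ndufaf3 (log2 FC -0.93 ± 0.27) and Ndufaf8 (-1.01 ± 0.34) were also called lower in microglia, with edgeR adjusted p of 0.0236 and 0.0462. The members highest in microglia relative to astrocytes were Ndufa1 (0.95 ± 0.70, edgeR adjusted p = 0.338), Ndufs1 (0.21 ± 0.33, 0.677) and Ndufaf7 (0.11 ± 0.25, 0.763), none of them called. Ndufaf7, a methyltransferase, was 77.3, 79.4 and 66.5 CPM in astrocytes and 74.7, 83.5 and 83.4 CPM in microglia.

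Without the 3 libraries rich in choroid plexus transcripts, the AAV-GFP microglial arm was GFP-2331 alone, assumed to vary like the other groups. The subunit median was then -1.78 and the assembly factor median -0.94 (-0.18 over all genes), and 27 members were called lower, against 12.5% of genes, and Ndufa1 turned to -1.21. Of the 18, Ndufs7, Ndufs8, Ndufa9, Ndufa10, Ndufb4, Ndufaf3 and Ndufaf8 were not among the 27. Between the AAV-A2A libraries of the 2 fractions the subunit median was -2.59 and 42 members were called lower, against 21% of genes. The count of 18 was unstable to single libraries: among the astrocytes, dropping GFP-307 or GFP-303 left 5 (8.15% and 8.3% of genes called lower in those fits) and dropping GFP-306 left 6 (8.75%). Dropping microglial GFP-2328 left 11 (9.28%), GFP-2329 left 7 (8.15%) and GFP-2331 left 7 (9.85%). It was 11 without A2A-309 (10.3%) and 11 without A2A-313 (10.6%). The smallest of these counts, 5 of 46, lies near its background share.

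The vector comparison in astrocytes asked how transcripts differed in the cells that carry the receptor. Nearly all members were slightly higher in the AAV-A2A libraries, and none passed the test. Of the 46 members, 0 were called by edgeR, DESeq2 or limma-voom, against 3.36%, 6.51% and 3.6% of the 16451 genes tested. A log2 FC above 0 was found in 35 of 36 subunits and 6 of 8 assembly factors, against 51.6% of all genes. The median was 0.22 for subunits and 0.23 for assembly factors, against 0.02 over all genes. An unadjusted p under 0.05 was reached by 1 member (Ndufs7), against 13% of genes, and by 14 members without GFP-303 (13.1% of genes).

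Ndufs7, a core subunit that carries the last iron-sulfur cluster before ubiquinone, had the largest log2 FC. Among AAV-GFP libraries it was 435.9 CPM in GFP-303, 363.4 CPM in GFP-306 and 361.1 CPM in GFP-307, and it was 525.7, 503.9 and 494.4 CPM in A2A-309, A2A-310 and A2A-313. The groups did not overlap, and the log2 FC was 0.39 ± 0.16 (edgeR adjusted p = 0.321). Ndufaf7 was also without overlap, at 73.2 ± 7.05 and 86.7 ± 9.21 CPM (SD, n = 3 each). In all, 3 of 46 members lay wholly higher, against 8.61% of all genes.

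Further core subunits of the astrocytes overlapped between vectors. Ndufs8 was 323, 228 and 230 CPM in AAV-GFP and 298, 355 and 318 CPM in AAV-A2A libraries (log2 FC 0.31 ± 0.19). Ndufv1 was 328, 302 and 328 CPM and then 303, 371 and 409.6 CPM (log2 FC 0.18 ± 0.17). Ndufs3 was 115, 123 and 109 CPM and then 119, 139 and 136 CPM (log2 FC 0.18 ± 0.16). In these genes the lowest AAV-A2A library lay inside the AAV-GFP range. Ndufs1 was 89.4, 118 and 117 CPM and then 110, 92.0 and 149 CPM (log2 FC 0.11 ± 0.22). Ndufv2 was 373.9, 284 and 215 CPM and then 282, 319.8 and 312.5 CPM (log2 FC 0.07 ± 0.21). Both turned negative when single libraries were left out.

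Among the accessory subunits, 28 of 29 had a log2 FC above 0, from 0.01 to 0.37, and 0 were without overlap. Ndufa3 (0.37 ± 0.20) and Ndufb2 (0.36 ± 0.23), both of the membrane arm, were highest after Ndufs7. Ndufa3 was 64.7, 44.3 and 54.0 CPM in AAV-GFP and 73.2, 75.8 and 61.9 CPM in AAV-A2A libraries, and Ndufb2 was 55.2, 33.2 and 39.7 CPM and then 56.5, 55.3 and 52.0 CPM. Library GFP-303 often lay among the AAV-A2A libraries: it was the highest of the 6 libraries for 11 subunits, whereas GFP-307 was the lowest for 22 and GFP-306 for 12. With GFP-303 left out the subunit median was 0.42, against 0.14 to 0.42 over the 6 libraries left out in turn.

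The assembly factors of the astrocytes had log2 FC of both signs. Ndufaf5, which hydroxylates an arginine of Ndufs7, was 29.8, 21.04 and 28.0 CPM in AAV-GFP and 21.9, 19.1 and 22.2 CPM in AAV-A2A libraries (log2 FC -0.32 ± 0.24, edgeR adjusted p = 0.693), the lowest value of any member. Its partner Ndufaf8 was 60.0, 46.02 and 35.9 CPM and then 65.7, 57.1 and 50.8 CPM (log2 FC 0.29 ± 0.23). Ndufaf6 had a log2 FC of 0.33 ± 0.25, Ndufaf3 of 0.27 ± 0.23 and its binding partner Ndufaf4 of 0.21 ± 0.27. Ndufaf1, a member of the membrane arm assembly complex, stood at 0.13 ± 0.25 and Ndufaf2 at -0.04 ± 0.28. Ndufa4 and Ndufa4l2 stood at -0.01 ± 0.24 and -0.09 ± 0.20.

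In microglia, a cell type that the vector's promoter is not named for, all 46 genes had a negative log2 FC in AAV-A2A libraries, and none passed the test. A log2 FC below 0 was found in 52.1% of all 16949 genes tested. The subunits had a median of -1.50 and the assembly factors of -1.22, against -0.05 over all genes. edgeR called 0 members and 0% of all genes, with an adjusted p of 0.28 to 0.927 over the members. An unadjusted p under 0.05 was reached by 28 members, against 16% of genes. That count was 4 without GFP-2329 (5.28% of genes), 7 without GFP-2328 (7.67%), 9 without A2A-2344 (6.98%) and 15 without A2A-2343 (18.2%). It was 11 with a length and GC trend removed (8.41%) and 2 in the 3 libraries low in choroid plexus transcripts (4.22%). limma-voom also called 0, while DESeq2 called Ndufb4, Ndufs4, Ndufa7 and the assembly factor Ndufaf2 lower, 4 of 46 against 1.59% of genes lower and 4.09% in all.

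**Figure D3:**
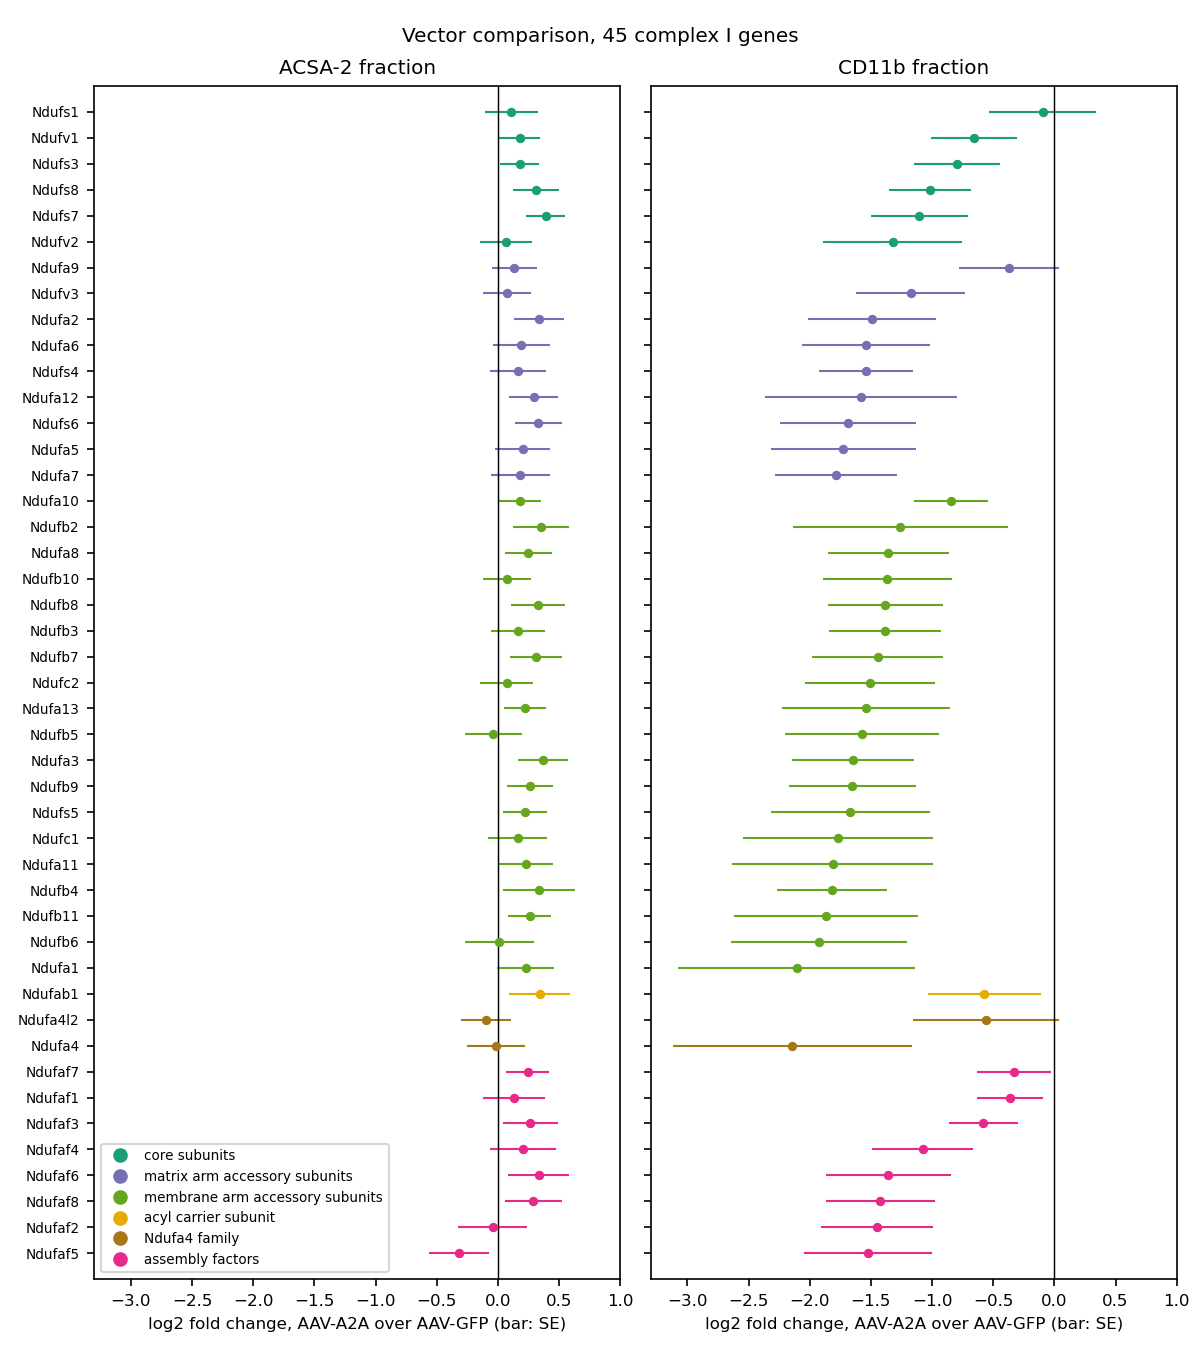
Log2 FC of AAV-A2A over AAV-GFP for 45 of the 46 genes in astrocytes (left) and microglia (right), with bars of 1 SE from edgeR and n = 3 libraries per group, grouped by role and sorted by the microglial value. In astrocytes the values lie between -0.32 and 0.39, and in microglia all lie below 0, from -0.09 (Ndufs1) to -2.14 (Ndufa4), with wider bars.

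The 3 AAV-A2A microglial libraries lay wholly below the 3 AAV-GFP ones for 22 of 46 members, against 10.9% of genes. These were 16 of 36 subunits and 6 of 8 assembly factors. A2A-2344 was the lowest library for 43 of 46 members, against 21.3% of genes, and GFP-2328 or GFP-2329 was the highest for 43.

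The core subunits were the least different between vectors, with a median log2 FC of -0.79 against -1.54 for the accessory subunits and -1.22 for the assembly factors. In the 3 libraries rich in choroid plexus transcripts these medians were -0.78, -1.27 and -1.18. In the 3 low ones they were -0.69, -0.92 and -0.62, so there the core subunits were not nearest to 0. Ndufs1 was 171, 136 and 83.2 CPM in GFP-2328, GFP-2329 and GFP-2331 and 97.3, 82.2 and 185 CPM in A2A-2343, A2A-2344 and A2A-2347 (log2 FC -0.09 ± 0.44). Its groups overlapped fully, with the highest value in an AAV-A2A library. Ndufs7 was 223, 212 and 155 CPM and then 121, 52.0 and 101.7 CPM, without overlap (log2 FC -1.10 ± 0.40, edgeR adjusted p = 0.288). Ndufs8 was 153, 169 and 129 CPM and then 87.8, 48.4 and 86.9 CPM, without overlap (log2 FC -1.02 ± 0.33, edgeR adjusted p = 0.28). Both belong to the ubiquinone-binding module.

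Ndufv1, Ndufv2 and Ndufs3 overlapped in microglia through A2A-2347. Ndufv1 was 218, 183 and 154 CPM and then 107, 83.5 and 161 CPM (log2 FC -0.66 ± 0.35). Ndufv2 was 175, 156 and 65.6 CPM and then 48.9, 24.5 and 85.5 CPM (log2 FC -1.32 ± 0.57). Ndufs3 was 85.7, 72.5 and 45.0 CPM and then 43.8, 27.8 and 45.6 CPM (log2 FC -0.79 ± 0.35). In each, A2A-2347 lay above GFP-2331, and the other AAV-A2A libraries lay below all AAV-GFP ones.

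Ndufa4 and accessory subunits made up the low end. Ndufa1 was 146, 125 and 20.1 CPM in AAV-GFP and 13.7, 5.88 and 48.1 CPM in AAV-A2A microglia (log2 FC -2.11 ± 0.97, edgeR adjusted p = 0.341). Ndufb6 was 70.3, 67.2 and 20.5 CPM and then 9.29, 5.63 and 26.6 CPM (log2 FC -1.92 ± 0.72, edgeR adjusted p = 0.293). Ndufa4, of complex IV, was 325, 311 and 53.4 CPM and then 25.3, 14.6 and 116 CPM (log2 FC -2.14 ± 0.98, edgeR adjusted p = 0.339). For these 3 genes GFP-2331 lay below A2A-2347, and within the libraries low or rich in choroid plexus transcripts each AAV-A2A library lay below its AAV-GFP counterparts. Ndufa9, a matrix arm subunit near the ubiquinone site, was the accessory subunit nearest to 0 (log2 FC -0.37), and the matrix arm and membrane arm medians were alike at -1.54 and -1.57. Ndufa4l2 was 8.23, 10.1 and 26.4 CPM and then 9.07, 15.4 and 5.89 CPM, with full overlap and its highest value in GFP-2331.

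The assembly factors differed in size. Ndufaf7 (-0.33 ± 0.30), Ndufaf1 (-0.36 ± 0.27) and Ndufaf3 (-0.58 ± 0.28) were nearest to 0. Ndufaf1 was 30.5, 26.5 and 28.4 CPM in AAV-GFP and 25.3, 18.8 and 22.5 CPM in AAV-A2A microglia, a small difference without overlap. Ndufaf3 was 37.2, 45.0 and 39.9 CPM and then 33.9, 21.8 and 25.9 CPM, and Ndufaf7 was 78.6, 85.6 and 81.1 CPM and then 85.2, 45.2 and 64.3 CPM. Ndufaf7 alone of these overlapped, through A2A-2343.

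At the other end Ndufaf5 was 21.5, 20.9 and 8.95 CPM and then 7.33, 3.36 and 7.18 CPM (log2 FC -1.52 ± 0.52, edgeR adjusted p = 0.282). Ndufaf2 was 7.86, 8.49 and 7.76 CPM and then 4.003, 1.89 and 2.91 CPM (log2 FC -1.45 ± 0.46, edgeR adjusted p = 0.28). Ndufaf8 was 27.8, 28.8 and 16.4 CPM and then 10.97, 5.03 and 11.2 CPM (log2 FC -1.42 ± 0.45, edgeR adjusted p = 0.28). All 3 were without overlap, and Ndufaf2 was even across the AAV-GFP libraries. Ndufaf6 (-1.36 ± 0.51) was also without overlap, and Ndufaf4 (-1.08 ± 0.41) was not.

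The libraries low and rich in choroid plexus transcripts were then compared separately, a choice made after seeing the data. Among the 3 rich libraries, A2A-2347 lay below both GFP-2328 and GFP-2329 for 45 of 46 members, against 40.3% of genes. Among the 3 low libraries, A2A-2343 and A2A-2344 both lay below GFP-2331 for 42 of 46 members, against 34.3% of genes. The subunit median was -1.21 in the rich and -0.89 in the low libraries, and -0.91 in all 6 with the choroid plexus level as a covariate. With edgeR, 15 members were called lower among the rich (2.94% of genes called lower) and 0 among the low (0.0115%). Each of these fits has 1 library in an arm, A2A-2347 or GFP-2331. A gene's own spread therefore comes from the pair in the other arm, and edgeR moderates it by the spread of the other genes. The calls hold for these libraries only. Erythrocyte and neuron markers were also highest in GFP-2328 and GFP-2329, at 2504 and 6135 CPM and at 74.9 and 114 CPM, against 62.1 to 988 CPM and 5.41 to 25.2 CPM elsewhere. Endothelial and ependymal markers were highest there too, at 1076 and 1654 CPM and at 556 and 765 CPM. Mitochondrial transcripts held 1.69% and 1.15% of counts in these libraries and 0.180% to 0.216% in the others. The part of these in the result was not tested.

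**Figure D4:**
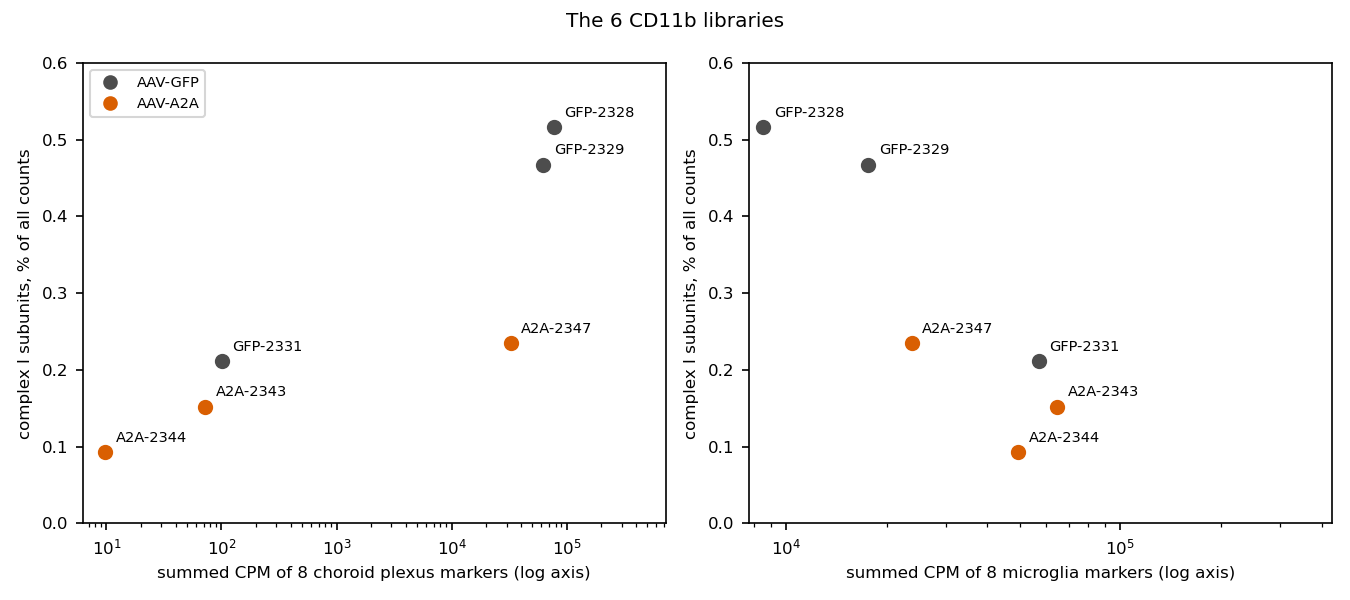
Share of all counts held by the 36 subunits (y axis, percent) in the 6 CD11b libraries against the summed CPM of 8 choroid plexus markers (left) and of 8 microglia markers (right), both on log axes, with AAV-GFP libraries grey and AAV-A2A libraries orange. GFP-2328 and GFP-2329 hold the highest subunit shares (0.516% and 0.468%) with the lowest microglia marker sums, and A2A-2344 holds the lowest share (0.093%).

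Exon length moved with the microglial differences. Across the 36 subunits the log2 FC and the log2 exon length had a Pearson r of 0.622 and a Spearman rho of 0.589, whereas in astrocytes they had -0.0389 and -0.0366. Within the low libraries the values were 0.581 and 0.596, and within the rich ones 0.573 and 0.575. These are descriptions over genes that share the libraries. The 7 core subunits had a median exon length of 2178 bases and the 29 accessory subunits of 1251 bases. The same held over all genes: the median log2 FC was -0.85 over the 1030 tested genes under 1000 bases, -0.67 from 1000 to 2000, -0.19 from 2000 to 4000 and 0.32 from 4000 bases.

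In each of these classes the subunits lay below the genes of like length. Their medians were -1.67 (9 subunits), -1.65 (13), -0.85 (9) and -1.26 (5) from the shortest to the longest class. With a length and GC trend removed from each library, the subunit median was -0.85 with 35 of 36 below 0 (0.08 over all genes), the core median -0.37 and the accessory median -0.95. The same step in astrocytes gave a subunit median of 0.11 with 11 of 36 below 0 (0.04 over all genes). Before that step, the astrocytic medians over all genes were 0.15, 0.15, 0.07 and -0.08 from the shortest to the longest class. Those of the subunits were 0.23, 0.23, 0.18 and 0.31.

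**Figure D5:**
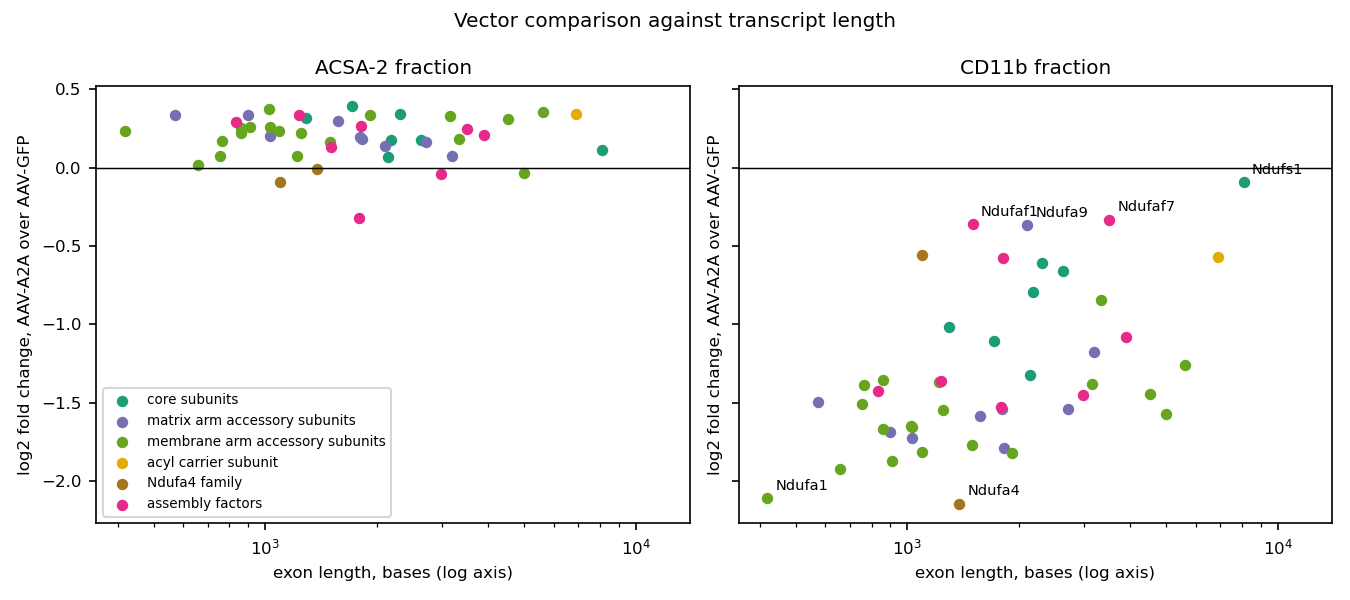
Log2 FC of AAV-A2A over AAV-GFP against exon length in bases (log axis) for the 46 genes in astrocytes (left) and microglia (right), coloured by role. In microglia the short Ndufa1 is near the bottom (-2.11) and the long Ndufs1 at the top (-0.09). In astrocytes no such slope is seen among these genes.

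The difference of the vector effect between fractions was tested directly. All 46 members had a negative estimate (microglia minus astrocytes), against 52.8% of genes, with a median of -1.66 for subunits and -1.18 for assembly factors, against -0.10 over all genes. edgeR called 0 members (0.0376% of genes called lower) at a lowest adjusted p of 0.0752, of 0.403% of genes called in either direction. limma-voom also called 0, of 0.478% of genes. An unadjusted p under 0.05 was reached by 36 members, against 19.6% of genes. It was reached by 21 without GFP-2328 (15.7% of genes), 22 without GFP-2329 (14.1%) and 12 with a length and GC trend removed (12.7%). Without the 3 libraries rich in choroid plexus transcripts it was reached by 15 (11%), 0 members were called, and the medians were -1.09 for subunits and -0.63 for assembly factors (0.09 over all genes). DESeq2 called 14 members, 13 subunits and Ndufaf8, against 3.21% of genes called lower. Without GFP-2331 edgeR called 14 as well, in a fit that called 1.85% of genes lower, and without A2A-2343 it called 2 (0.953%).

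The other respiratory complexes were read from lists of nuclear genes. In microglia the 10 tested nuclear subunits of complex IV had a median log2 FC of -1.66, the 9 of complex III of -1.48, the 15 of ATP synthase of -1.45 and the 4 of complex II of -0.72. All members of complexes III and IV, 14 of 15 of ATP synthase and 3 of 4 of complex II were below 0, and 0 were called by edgeR. In the same order the medians were -0.99, -0.69, -0.74 and -0.39 in the libraries low in choroid plexus transcripts and -1.33, -1.22, -0.97 and -0.54 in the rich ones. In astrocytes the corresponding medians were 0.23, 0.21, 0.11 and 0.06, with 0 called. Between fractions 1 of 4 (complex II, Sdhb), 2 of 9 (complex III), 1 of 10 (complex IV) and 2 of 15 (ATP synthase) were called lower in AAV-GFP microglia and 0 higher, against 12.3% of all genes called lower. Without the rich libraries 2, 6, 8 and 10 were called lower, against 12.5% of genes.

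The complex I subunits encoded by mitochondrial DNA stood apart from the nuclear ones between fractions. All 6 tested had a positive log2 FC in AAV-GFP microglia against AAV-GFP astrocytes, with a median of 1.62. Of the 6, mt-Nd5 alone was called higher (2.53 ± 0.65, edgeR adjusted p = 0.015), against 14.4% of all genes. That call was lost without GFP-307 (edgeR adjusted p = 0.0538). Without the libraries rich in choroid plexus transcripts the median of the 6 was -0.55, with 5 below 0 and 0 called. For mt-Nd5 the log2 FC was then 0.41, and it was -0.40 between the AAV-A2A libraries of the 2 fractions. Within microglia the vector comparison gave a median of -2.44, all 6 below 0 and 0 called. The median was -0.25 in the low libraries, with 5 below 0, and -2.88 in the rich ones, with all 6 below 0. GFP-2331 was the only AAV-GFP library of the low set and A2A-2347 the only AAV-A2A library of the rich set. mt-Nd1 was 3028, 1960 and 451 CPM in GFP-2328, GFP-2329 and GFP-2331 and 362, 352.5 and 375.7 CPM in A2A-2343, A2A-2344 and A2A-2347. The high values were thus those of GFP-2328 and GFP-2329, and A2A-2347, though rich in choroid plexus transcripts, was at the level of the other libraries.

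Of 13 further genes tested that help to assemble complex I, 1 was called in astrocytes, against 3.36% of all genes, and it fell. Timmdc1, an assembly factor of the membrane arm, was 18.45, 20.45 and 15.6 CPM in AAV-GFP and 5.76, 5.10 and 5 CPM in AAV-A2A astrocytes (log2 FC -1.78 ± 0.30, edgeR adjusted p = 0.0107). It passed in every alternative except without GFP-306 (edgeR adjusted p = 0.062). In microglia Timmdc1 was 12.4, 10.9 and 9.20 CPM and then 6.21, 4.75 and 5.69 CPM, also without overlap (log2 FC -0.97 ± 0.37, edgeR adjusted p = 0.295, with -0.74 in the low and -1.03 in the rich libraries). The most different of the others in the opposite direction was Tmem126b, which works with Ndufaf1 in building the membrane arm, at 28.3 ± 4.63 and 41.9 ± 2.42 CPM in astrocytes (log2 FC 0.56 ± 0.21, edgeR adjusted p = 0.28). Between fractions 2 of the 13 were called lower in AAV-GFP microglia, against 12.3% of all genes. These were Tmem70 (-1.20 ± 0.32) and Dmac1 (-1.21 ± 0.32), with edgeR adjusted p of 0.0185 and 0.0159. Neither was called without the rich libraries (edgeR adjusted p = 0.0523 and 0.0997).

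Among 12 regulators of respiratory genes, 1 was called in astrocytes, against 3.36% of all genes: Myc, a broad growth regulator, fell. It was 30.0, 29.7 and 43.6 CPM in AAV-GFP and 13.8, 7.44 and 14.3 CPM in AAV-A2A libraries (log2 FC -1.54 ± 0.32, edgeR adjusted p = 0.0307), a call lost when any 1 of the 6 libraries was left out, with edgeR adjusted p of 0.0672 to 0.139, and in the fit of all 12 libraries (edgeR adjusted p = 0.402). In microglia the 12 regulators had a median log2 FC of 0.51 (-0.05 over all genes), with 9 above 0, 3 below and 0 called. Gabpa, which encodes the DNA-binding subunit of GABP, was 1 of 4 regulators higher in AAV-A2A microglia without overlap. Gabpa stood at 15.6, 17.1 and 21.8 CPM and then 33.8, 47.5 and 29.4 CPM (log2 FC 1.02 ± 0.31, edgeR adjusted p = 0.28, with 0.91 in the low and 0.86 in the rich libraries). Gabpb1, its partner, was called higher in AAV-GFP microglia than in AAV-GFP astrocytes (2.08 ± 0.38, edgeR adjusted p = 0.00237). Of the 12 regulators it alone was called higher, against 14.4% of all genes. Without the rich libraries its log2 FC was 2.57.

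Beside the 46 members, GENCODE lists Ndufb1-ps as a non-coding gene, while RefSeq lists the same gene as the coding membrane arm subunit Ndufb1. It was 46.3, 40.3 and 12.9 CPM in AAV-GFP and 9.48, 4.30 and 11.9 CPM in AAV-A2A microglia (log2 FC -1.96 ± 0.61, edgeR adjusted p = 0.28), in the range of the other membrane arm subunits. The log2 FC was -0.91 in the low and -1.85 in the rich libraries. In astrocytes its log2 FC was 0.10 ± 0.28. The 4 processed pseudogenes of the family had at most 11 counts in any library.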

How the data were processed

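Sequencing libraries of 12 sorted hippocampal samples (SMART-Seq v4 and Nextera XT, single reads, no molecular identifiers) were counted per gene by the authors, who trimmed with cutadapt 1.10, aligned with STAR 2.5.3 to mm10 and counted unique reads with htseq-count 0.6.1p1. The deposited values are raw counts, 1 table per fraction. The strand setting is not given in the sources used here, so overlapping antisense genes and near-identical copies may share reads. Amplified reads are not independent molecules.

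From these counts edgeR 4.0.16 (R 4.3.3) was run with TMM scaling, filterByExpr and robust quasi-likelihood tests, within each fraction for the vector and over all 12 libraries for the fraction and for the difference of vector effects. P-values were Benjamini-Hochberg adjusted over all genes tested, and a call needed an adjusted p below 0.05 with a log2 FC beyond 0.32 in either direction. CPM were scaled by TMM within a fraction unless stated, and errors of log2 FC are SE. Gene types and exon lengths came from GENCODE M21. Alternatives were DESeq2 1.42.0, limma-voom (limma 3.58.1), RLE scaling, 2 other filters, no fold threshold, removal of a length and GC trend, other library sets and each library left out. The fits were tested on simulated data, with a limit on calls of unchanged genes set for edgeR and limma-voom but not for DESeq2. No replicate pair agreed within sampling noise.

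Members and gene lists were chosen with earlier results of these data known. Genes named with values were the core subunits, the assembly factors, Ndufa4 and Ndufa4l2, any member called within a fraction, in each fraction the 3 highest and 3 lowest log2 FC among members of at least 5 CPM, and the 3 highest and lowest between fractions. The values of 1 member are not reported here, though counts and medians include it. Of other lists, the called genes or else the most abundant were named. Ndufa9, Tmem126b, Gabpa, mt-Nd1, Ndufb1-ps, the genes called by DESeq2, those named for their level per kilobase and the promoters printed were chosen after their values were seen.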

Additional observations from a re-analysis of the deposited data

Results flagged for a closer look

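Ndufs7, a core subunit at the ubiquinone end of the matrix arm, differed between vectors in opposite directions in the 2 fractions. Every AAV-A2A library lay above every AAV-GFP library in astrocytes and below every AAV-GFP library in microglia. Opposite signs were general among the 36 subunits in the main fits. In astrocytes 35 had a log2 FC above 0 (51.6% of genes), and in microglia all 36 lay below 0 (52.1%). With the length and GC trend removed, 11 of 36 lay below 0 in astrocytes and 35 of 36 in microglia. For Ndufs7 the test of the difference (microglia less astrocytes) gave -1.442 ± 0.427 on the log2 scale (edgeR adjusted p = 0.113). The subunit median of that difference was -1.66, farther from 0. Ndufs7 did not pass in this fit. DESeq2 called it, and so did edgeR without A2A-2343.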

How the results depend on the processing

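No paired analysis was possible because the groups compared share no replicate numbers. The length and GC, test, scaling and filter alternatives were planned, and the library sets by choroid plexus transcripts and the covariate were added after seeing the data. In astrocytes 0 members were called in any alternative. In microglia DESeq2 called 4 members and edgeR on the 3 libraries rich in choroid plexus transcripts 15. Between fractions the AAV-A2A libraries gave 42 calls, against 21% of genes called lower, and a subunit median of -2.59. The median was -1.78 without the rich libraries. With 1 library left out, 5 to 22 members were called. It was 5 without GFP-303 (8.3% of genes called lower) or GFP-307 (8.15%), and 22 without A2A-2344 (12%). For the difference of vector effects DESeq2 called 14 (3.21% of genes called lower) and a minimum of 10 counts in every library 1 (0.456%). Leaving out 1 library gave 0 to 14, with 14 without GFP-2331 (1.85%). The causes were not tested.

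Single genes turned sign. Several were near 0 in the main fits, but between fractions Ndufa1 (0.95) and mt-Nd5 (2.53) were not. With the length and GC trend removed, astrocytic Ndufv2 was -0.22 and Ndufaf1 -0.13, microglial Ndufa4l2 was 0.11 and Ndufaf1 0.42, and between fractions Ndufs1 was -0.051 and Ndufaf7 -0.12. With limma-voom astrocytic Ndufa4 was 0.038. Microglial Ndufs1 was 0.11 in the low libraries, 0.29 in the rich ones and 0.30 with the covariate. Between fractions without the rich libraries Ndufs1 was -0.34 and Ndufa1 -1.21, and between the AAV-A2A libraries Ndufa1 was -1.37, Ndufaf7 -0.41 and mt-Nd5 -0.40. With 1 library left out, astrocytic Ndufs1 ranged from -0.11 to 0.26, Ndufv2 from -0.12 to 0.27, Ndufa4 from -0.18 to 0.30, Ndufa4l2 from -0.25 to 0.016, Ndufaf1 from -0.037 to 0.34 and Ndufaf2 from -0.19 to 0.24. Microglial Ndufs1 ranged from -0.52 to 0.16 and Ndufa4l2 from -0.99 to 0.15. Between fractions Ndufs1 ranged from -0.013 to 0.42, Ndufa4 from -0.33 to 0.45 and Ndufaf4 from -0.39 to 0.18.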
